A study of Rattus norvegicus with 8 samples.

Results

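The lipid droplet proteins and lipases described here are 10 genes, Plin2, Plin4, Plin5, Cidea, Cideb, Cidec, Pnpla2, G0s2, Dgat1 and Dgat2. They were chosen by symbol among the 36174 distinct gene names on a rat expression array. All 10 were on the array, with 12 of its 45598 distinct probes, and 9 of the 10 gave enough signal to be tested. RNA was taken by laser microdissection from livers of F344 rats given retrorsine, which blocks the division of hepatocytes, in 2 injections of 30 mg/kg before a 70% partial hepatectomy (the Ret/PH model). In such livers small hepatocyte-like progenitor cells (SHPCs) form clusters. There were 3 samples of SHPC clusters from control livers without transplanted cells, 3 samples of SHPC clusters from livers that had received bone marrow-derived mesenchymal cells (BM-MCs) through the spleen, and 2 samples of mature hepatocytes (MHs), which the labels place in control livers. The methods give 14 days after transplantation for the livers examined by histology and name no other day. The labels call the strain DPPIV+, whereas the methods call the recipients DPPIV-. Neither source ties a sample to a rat, so the p-values cover sample-to-sample spread only, part or all of it possibly technical.

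A lipid droplet is a core of triglycerides and sterol esters under a single layer of phospholipids. Diacylglycerol acyltransferases, encoded by Dgat1 and Dgat2, make the triglyceride. Perilipins coat the droplet, and CIDE proteins pass lipid from small droplets to larger ones or, in the case of Cideb, help to load lipoproteins for export. The lipase ATGL, encoded by Pnpla2, starts triglyceride breakdown, and the small protein encoded by G0s2 inhibits it. Fat in the cytoplasm of SHPC clusters was among the features the study examined by histology, and the comparisons below ask whether the transcripts of these proteins differed between the groups.

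Each gene was read through 60-base probes, so a value refers to the transcripts that hold one stretch. Every droplet gene except Dgat1 and G0s2 was read through 1 probe. The probes for Cidea, Plin2 and Pnpla2 are shown as examples of these, and the second G0s2 probe because its orientation differs from that of the first. They are given as in the array design, in lower case throughout, with no letters marked.
Cidea: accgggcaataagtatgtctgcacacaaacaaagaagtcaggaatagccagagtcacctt
Plin2: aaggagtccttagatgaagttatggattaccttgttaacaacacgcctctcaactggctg
Pnpla2: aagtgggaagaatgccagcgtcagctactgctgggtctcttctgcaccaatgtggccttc
G0s2, second probe: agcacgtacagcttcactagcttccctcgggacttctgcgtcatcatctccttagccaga
The scanner file headers name build rn4. There the Cidea probe lies at chr18:63888076-63895390, a span of 7315 bases that is longer than the probe, the Plin2 probe at chr5:105719064-105719123 and the Pnpla2 probe at chr1:201646194-201646253. The first G0s2 probe lies at chr13:109121388-109121447 and the second at chr13:109121844-109121903. The design writes the positions of the first in descending order and those of the second in ascending order, and RefSeq places G0s2 on the minus strand in GRCr8. The second probe therefore has the opposite orientation to the gene in that annotation, and the first was used for the gene.

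Values are log2 signals relative to the 75th percentile of the same array, and a log2 difference of 1 is a 2-fold difference. Between 57.0% and 61.5% of the spots with marks were well above background and 0 were saturated. All 10 hepatocyte markers were well above background on all 7 arrays with complete marks, and so were all 10 stellate, all 10 Kupffer and all 8 endothelial markers on the array. In bulk samples fewer cells of a type and less RNA per cell cannot be told apart. Of 8 adipocyte markers, Fabp4 and Cfd were well above background on all 7 of these arrays, and Plin1 and Ucp1 on none. For control SHPC replicate 2 the scanner output covers 20903 of 62976 features, and the signals came from the deposited value table.

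No droplet gene differed past an adjusted p of 0.05 when SHPCs with BM-MCs were set against control SHPCs. Of the 9 genes tested, 5 had a higher and 4 a lower mean with BM-MCs, with log2 fold changes from -0.21 for Plin2 to 0.26 for Cidea. Their median was 0.051, beside 0.018 over all 23111 probes tested. The lowest adjusted p was 0.49 and the highest 0.94 (limma), and 0 of 9 had an unadjusted p under 0.05. Over all probes, limma called 0.0216% at the adjusted threshold, and 16.6% had an unadjusted p under 0.05. The samples of the groups overlapped for all 9 genes, whereas they did not overlap for 24.7% of all probes. The 95% confidence interval of the difference lay within 2-fold in either direction for 8 of the 9 genes, and for G0s2 it ran from -1.17 to 0.82. The means of 2 lists of blood cell markers did not overlap between these groups. Granulocyte markers, 6 in all, had means between -5.44 and -5.21 with BM-MCs and between -4.55 and -4.17 in control SHPCs, and Mpo, Csf3r and Cxcr2 among them were not well above background on any of the 7 arrays. Red cell markers, 6 in all, had means between -2.0 and -1.75 with BM-MCs and between -1.36 and -0.26 in control SHPCs. Their part in the droplet gene values was not tested.

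**Figure D1:**
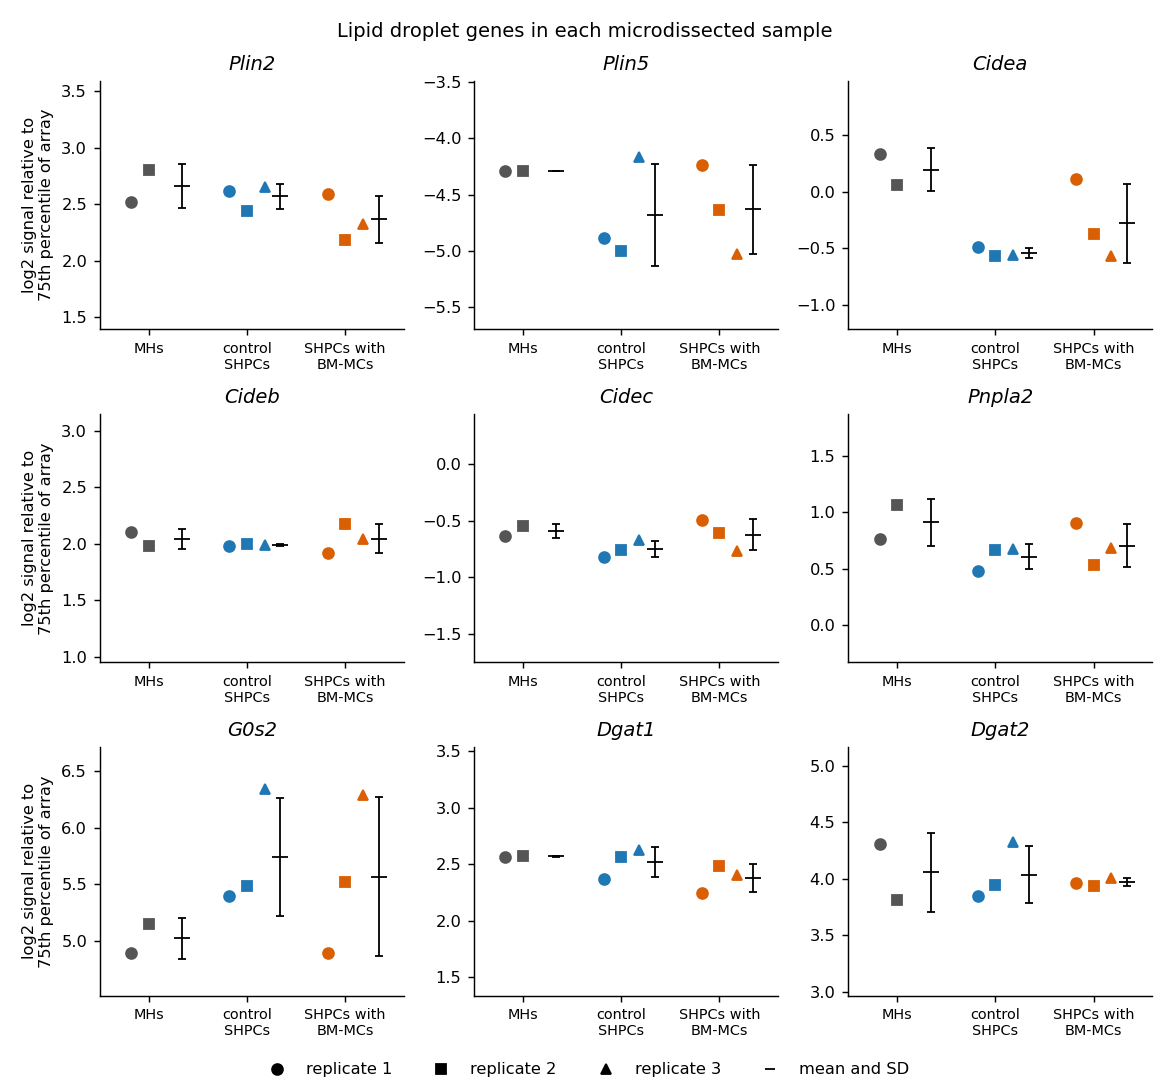
Log2 signal relative to the 75th percentile of the array (vertical axis, same span in every panel) for the 9 tested droplet genes in 2 MH samples, 3 control SHPC samples and 3 samples of SHPCs with BM-MCs. Symbols give the replicate number and bars the mean and SD. SHPCs with BM-MCs overlapped control SHPCs in every panel, G0s2 and Plin5 were spread widest within SHPC groups, and both MH samples lay above the 3 controls for Cidea and below them for G0s2.

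Among the coat proteins, Plin2, which coats droplets in most cells and is the main perilipin of fatty liver, was at 2.62, 2.44 and 2.65 in control SHPCs and at 2.59, 2.18 and 2.32 in SHPCs with BM-MCs. Of the MH samples, at 2.52 and 2.80, one lay within and one above the range of the controls. The group means were 2.57 ± 0.11 (SD, n = 3) in control SHPCs and 2.36 ± 0.21 (SD, n = 3) with BM-MCs. The difference of -0.21 had a 95% interval from -0.55 to 0.14 (limma, adjusted p = 0.49). It was -0.11 without BM-MC replicate 2 and -0.32 without BM-MC replicate 1.

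Plin5, which ties droplets to mitochondria in cells that burn fat, was spread widely among SHPCs. It was the dimmest tested droplet gene, with signals of 41.9 to 92.3 before scaling between arrays. The lowest signals marked as above background were 21.2 to 30.1, so that Plin5 was near the floor. Plin5 was at -4.89, -5.00 and -4.16 in control SHPCs and at -4.23, -4.64 and -5.02 with BM-MCs. Control replicate 3 and BM-MC replicate 1 lay near the MHs, at -4.30 and -4.29, and the other SHPC samples below. The difference with BM-MCs was 0.051 (95% interval -0.65 to 0.76, limma adjusted p = 0.94). It kept its sign under 15 of the 22 alternatives tried.

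Plin4, best known from fat tissue and muscle, was well above background on 2 of the 7 arrays with complete marks and was not tested. Its signal was 33.4 in control SHPC replicate 3 and 192 in BM-MC replicate 3, the arrays on which it was marked. On the other 6 arrays it lay between 5.53 and 19.1, below the lowest signal marked as above background on the respective array. The high value was therefore that of 1 sample among the 3 with BM-MCs. The adipocyte markers Adipoq and Lep were at -4.51 and -4.00 in control SHPC replicate 3, the only array with a complete set of marks on which they were well above background, and both lay between -8.43 and -7.65 elsewhere. In BM-MC replicate 3 they were at -7.85 and -7.80. The mean of the 8 adipocyte markers was -4.79 in control SHPC replicate 3 and lay between -5.87 and -5.48 in the other samples. The part of fat cells in the Plin4 values was not tested.

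Of the CIDE genes, Cidea showed the clearest difference between cell types. The protein enlarges droplets and is best known from brown fat and from fatty liver. It was at 0.33 and 0.063 in MHs and at -0.49, -0.57 and -0.56 in control SHPCs, so that both MH samples lay above every control. SHPCs with BM-MCs were at 0.11, -0.37 and -0.57. Replicate 1 lay within the range of the MHs, replicate 3 at the level of the controls, and replicate 2 between. On the linear scale before scaling between arrays, the Cidea signals were 1881 and 1769 in MHs, 1090, 1175 and 848 in control SHPCs, and 1876, 1106 and 920 with BM-MCs.

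The Cidea mean was 0.20 ± 0.19 (SD, n = 2) in MHs, -0.54 ± 0.042 (SD, n = 3) in control SHPCs and -0.28 ± 0.35 (SD, n = 3) with BM-MCs. MHs were 1.67-fold higher than control SHPCs, a log2 fold change of 0.74 (standard error 0.21, 95% interval 0.26 to 1.22). The unadjusted p from limma was 0.00798, and after adjustment over all probes it was 0.142, short of the threshold. With each sample left out in turn, the log2 fold change lay between 0.60 and 0.87. The difference of SHPCs with BM-MCs was 0.26 from control SHPCs (adjusted p = 0.50) and -0.48 from MHs (adjusted p = 0.38, both from limma). Without BM-MC replicate 1 the first of these was 0.069 and the second -0.67, and without BM-MC replicate 3 the first was 0.41.

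Cell type markers moved along with Cidea in part. The mean of the 10 Kupffer cell markers was 1.62 and 1.88 in MHs and lay between 0.89 and 1.40 in control SHPCs and between 1.07 and 1.58 with BM-MCs. Lrat, which marks the fat-storing stellate cells, was at 0.68 and 0.52 in MHs, at 0.055, -0.069 and -0.068 in control SHPCs and at 0.60, 0.043 and -0.27 with BM-MCs. Among the other stellate markers, Reln, Hgf and Rgs5 also lay above every control in both MH samples, and Col1a1 and Pdgfrb lay below every control. The rest overlapped. The mean of all 10 stellate markers overlapped between MHs and control SHPCs, between -1.43 and -1.19 and between -1.48 and -1.31. The mean of the 8 endothelial markers was 0.079 and -0.099 in MHs, -0.31, -0.30 and -0.14 in control SHPCs and 0.012, -0.072 and -0.24 with BM-MCs, so that both MH samples lay above every control. The mean of the 8 biliary markers was lower in MHs, at -6.00 and -5.47, than in control SHPCs, between -4.97 and -4.54, and lay between -5.58 and -4.59 with BM-MCs. The part of these cells in the Cidea values was not tested. The mean of all 8 adipocyte markers overlapped between MHs, at -5.61 and -5.67, and control SHPCs, at -5.77, -5.87 and -4.79. Of those well above background on all 7 arrays, Cfd was higher in both MH samples, at 3.16 and 2.98, than in control SHPCs, at 2.21, 2.42 and 1.60, whereas Fabp4 overlapped, at -3.47 and -2.47 against -2.59, -2.61 and -3.01. Ucp1, the brown fat marker, and Plin1 were not well above background on any of the 7 arrays. The part of fat cells in the Cidea values was not tested.

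Cideb and Cidec varied less. Cideb, the member of the family that hepatocytes use in lipoprotein assembly, was at 1.98, 2.0 and 1.99 in control SHPCs, at 1.92, 2.18 and 2.04 with BM-MCs and at 2.11 and 1.98 in MHs. Its 95% intervals lay between -0.28 and 0.34 in all 3 comparisons. Cidec, which drives droplet fusion in fat cells and in fatty liver, was at -0.82, -0.76 and -0.67 in control SHPCs and at -0.49, -0.61 and -0.77 with BM-MCs. The MHs, at -0.63 and -0.55, lay above all 3 controls by a mean of 0.16 (limma, adjusted p = 0.52). With BM-MCs the difference from control SHPCs was 0.13 (limma, adjusted p = 0.60), and it was 0.063 without BM-MC replicate 1 and 0.20 without BM-MC replicate 3.

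The lipase had a higher and its inhibitor a lower mean in MHs than in control SHPCs, and neither passed the test. Pnpla2 was at 0.76 and 1.06 in MHs, at 0.48, 0.67 and 0.67 in control SHPCs and at 0.91, 0.53 and 0.68 with BM-MCs. Both MH samples lay above every control, with a log2 fold change of 0.31 (95% interval -0.070 to 0.68, limma adjusted p = 0.34). It was 0.16 without MH replicate 2 and 0.45 without MH replicate 1. With BM-MCs the difference from control SHPCs was 0.098 (95% interval -0.23 to 0.43, adjusted p = 0.74 from limma), and it was -0.00092 without BM-MC replicate 1.

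G0s2 was at 4.89 and 5.15 in MHs, below every control SHPC sample. Control SHPCs were at 5.39, 5.48 and 6.34, and SHPCs with BM-MCs at 4.89, 5.52 and 6.29. In both SHPC groups replicate 3 was the highest, and BM-MC replicate 1 lay at the level of the lower MH sample. The log2 fold change of MHs over control SHPCs was -0.72 (standard error 0.43, 95% interval -1.73 to 0.29, limma adjusted p = 0.39), and -0.42 without control SHPC replicate 3. With BM-MCs the difference from control SHPCs was -0.17 (standard error 0.41, limma adjusted p = 0.85). It turned to 0.13 without control SHPC replicate 3 and to 0.17 without BM-MC replicate 1, and was -0.53 without BM-MC replicate 3. The mean of the 10 hepatocyte markers was 5.31 and 5.34 in MHs, below the controls at 5.62, 5.49 and 5.81. With BM-MCs it was 5.31, 5.54 and 5.72, in the same order of samples as G0s2. Not all of these markers were lower in MHs. Apoa1, Tat and Cps1 lay below every control in both MH samples, with Tat at -0.53 and -0.51 against 0.39, 0.25 and 0.93. Hnf4a lay above every control, at 3.89 and 3.83 against 3.66, 3.58 and 3.77, and the other markers overlapped. The part of these markers in the G0s2 values was not tested.

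The second G0s2 probe, the one printed above, gave the same order of the groups. Because of its opposite orientation to the gene, it may not read the G0s2 transcript. Before scaling between arrays its signals were 336 to 1004, against 44314 to 106769 for the first probe. The second probe was at -2.15 and -1.79 in MHs, at -1.43, -1.16 and -0.32 in control SHPCs and at -1.99, -1.66 and -0.77 with BM-MCs. Again both MH samples lay below the 3 controls and replicate 3 was the highest of each SHPC group. The log2 fold change of MHs over control SHPCs was -1.0 on this probe (limma, adjusted p = 0.26), and that of SHPCs with BM-MCs over control SHPCs was -0.50 (limma, adjusted p = 0.55).

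The G0s2 value minus the Pnpla2 value of the same array does not depend on the scaling factor of the array. With the mean of the control SHPCs set to 0, it was -1.0 and -1.05 in MHs and -0.22, -0.32 and 0.53 in control SHPCs, so that the MHs lay below the controls. In SHPCs with BM-MCs it was -1.15, -0.14 and 0.48. Replicate 1 was at the level of the MHs and the other two were within the range of the controls. This difference shows unequal change of the genes and was not tested.

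**Figure D2:**
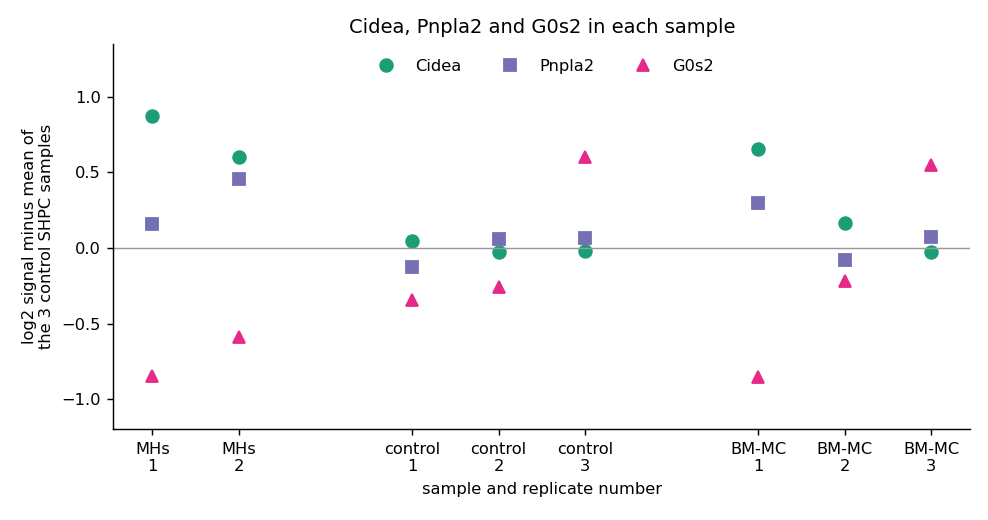
Log2 signal of Cidea, Pnpla2 and G0s2 in each of the 8 samples (horizontal axis, with replicate number) minus the mean of the 3 control SHPC samples (vertical axis). In both MH samples and in BM-MC replicate 1, Cidea and Pnpla2 were above 0 and G0s2 was below it, with G0s2 at -0.85, -0.59 and -0.85, while BM-MC replicate 3 and control replicate 3 had G0s2 at 0.55 and 0.60.

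Neither acyltransferase of triglyceride synthesis passed the test in any comparison. Dgat1 was at 2.37, 2.56 and 2.63 in control SHPCs, at 2.24, 2.48 and 2.41 with BM-MCs and at 2.56 and 2.57 in MHs. All 3 samples with BM-MCs lay below both MHs, by a mean of 0.19 (95% interval of the log2 fold change -0.50 to 0.12, limma adjusted p = 0.55). The log2 fold change was -0.13 without BM-MC replicate 1. A second Dgat1 probe gave 0.12 for this comparison (95% interval -0.28 to 0.52, limma adjusted p = 0.78), and its groups overlapped. Dgat2 was at 3.85, 3.94 and 4.32 in control SHPCs, at 3.96, 3.94 and 4.01 with BM-MCs and at 4.31 and 3.81 in MHs. The MH samples were farther apart than the groups, with an SD of 0.35 (n = 2). Its log2 fold changes lay between -0.089 and 0.020 in the 3 comparisons. Their sign rested on single samples, since with each left out in turn MHs against control SHPCs ran from -0.23 without MH replicate 1 to 0.27 without MH replicate 2, and BM-MCs against MHs from -0.34 without MH replicate 2 to 0.16 without MH replicate 1. With BM-MCs against control SHPCs it was 0.073 without control SHPC replicate 3.

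Between MHs and control SHPCs 0 of 9 droplet genes passed the adjusted threshold, and 8 had a higher and 1 a lower mean in MHs. Their log2 fold changes ran from -0.72 for G0s2 to 0.74 for Cidea, with a median of 0.092 beside 0.032 over all probes. Only Cidea had an unadjusted p under 0.05, a share of the 9 genes set beside 19.2% of all probes. In limma 1.13% of all probes passed the adjusted threshold, 50 higher and 212 lower. Without control SHPC replicate 2 these were 4 and 93, and without BM-MC replicate 3 they were 214 and 309. Samples of the groups did not overlap for 4 of 9, Cidea, Cidec, Pnpla2 and G0s2, against 41.4% of all probes, a share near this background. The interval lay within 2-fold for 6 of 9 genes.

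When SHPCs with BM-MCs were set against MHs, a comparison that shares the MH samples with the one before it, 0 of 9 passed the adjusted threshold and 0 had an unadjusted p under 0.05. The adjusted p from limma was 0.38 or above. Over all probes 0.338% passed and 13.3% had an unadjusted p under 0.05 in limma. The droplet genes had a median log2 fold change of -0.19, beside 0.0030 over all probes, with 2 higher and 7 lower with BM-MCs. Dgat1 was the only one whose samples did not overlap, against 32.4% of all probes. The interval lay within 2-fold for 7 of 9.

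**Figure D3:**
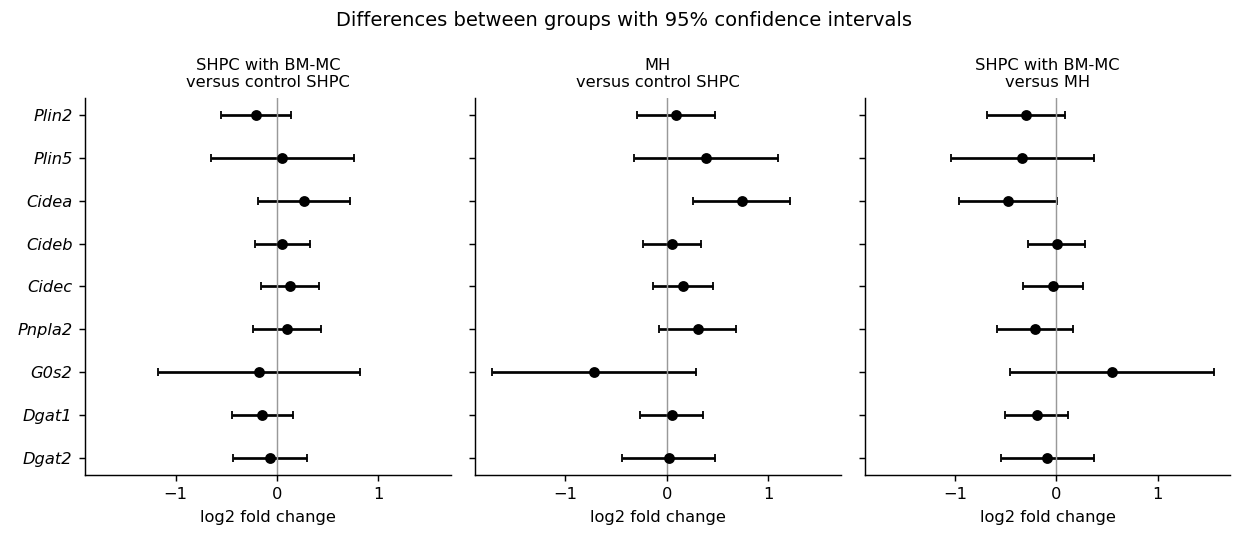
Log2 fold change (horizontal axis) of the 9 tested droplet genes in the 3 comparisons, as points with 95% confidence intervals from limma, unadjusted for the number of probes. Only the interval of Cidea in MHs against control SHPCs, from 0.26 to 1.22, leaves out 0, and its adjusted p was 0.142.

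The samples with BM-MCs varied in their nearness to MHs, over the droplet genes and over all probes. BM-MC replicate 1 lay nearer to the MH mean than to the control SHPC mean for 5 of 9 genes, Plin5, Cidea, Cidec, Pnpla2 and G0s2. Replicate 2 did so for 2 genes, Cideb and Cidec, and replicate 3 for 1, Cideb. Over the 22969 probes measured on all 8 arrays, the share nearer to the MH mean was 57.4%, 57.1% and 37.7% in replicates 1, 2 and 3. The 5 of 9 genes in replicate 1 were near its share of all probes. The MH and control SHPC means of Cideb, Dgat1 and Dgat2 differed by only 0.052, 0.049 and 0.020, so that nearness says little for these genes. Position on the slide largely coincided with transplantation, since the first 4 places held the MHs and control SHPC replicates 1 and 2, and the other 4 held control SHPC replicate 3 and all samples with BM-MCs. With these sets as a block, which compares the BM-MC samples with control SHPC replicate 3 alone, the log2 fold change was 0.29 for Cidea, -0.29 for Plin2, -0.47 for Plin5 and -0.77 for G0s2. The MHs compared with control SHPC replicates 1 and 2 in this way gave 0.73 for Cidea and -0.42 for G0s2. None passed the adjusted threshold.

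By the brightest probe of each gene, Cidea had the widest range of group means among the tested droplet genes, at 0.74, with G0s2 next at 0.72. The second G0s2 probe, of opposite orientation to the gene, ranged over 1.0. The values of the 8 samples share 1 slide and the scaling of each array. Of 14462 other gene symbols, those most like Cidea over these samples were Fcgr2b (Pearson r = 0.99), Zcwpw2 (r = 0.99), Ces1e (r = 0.98), Crebl2 (r = 0.98) and Ces1f (r = 0.98). Fcgr2b encodes an inhibitory receptor for immunoglobulin G found on liver sinusoidal endothelium and on macrophages. It was at 1.67 and 1.57 in MHs, between 1.32 and 1.34 in control SHPCs and at 1.56, 1.45 and 1.33 with BM-MCs. Ces1e and Ces1f encode carboxylesterases of hepatocytes, whose family members are close in sequence and may share signal. Ces1e was at 2.70 and 2.21 in MHs, between 1.04 and 1.22 in control SHPCs and at 2.06, 1.60 and 1.04 with BM-MCs.

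Around these 10 genes, 66 others of droplet metabolism were followed in 5 lists, of which 63 were on the array and 57 were tested. None passed the adjusted threshold in any of the 3 comparisons, either higher or lower. With BM-MCs against control SHPCs, 6 had an unadjusted p under 0.05 with a higher and 3 with a lower mean. In MHs against control SHPCs these counts were 10 and 4, and with BM-MCs against MHs they were 2 and 7 (limma). These are 15.8%, 24.6% and 15.8% of the 57 genes, beside 16.6%, 19.2% and 13.3% of all probes. Samples of the groups did not overlap for 12, 30 and 17 of the 57 genes, or 21.1%, 52.6% and 29.8%, beside 24.7%, 41.4% and 32.4% of all probes. The medians of the 57 log2 fold changes were -0.0097, 0.069 and -0.084 in this order.

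By list, the comparison with BM-MCs against control SHPCs had 7 higher and 5 lower of 12 other droplet proteins, 5 higher and 6 lower of 11 lipolysis genes, 6 higher and 12 lower of 18 genes of triglyceride synthesis, 3 higher and 3 lower of 6 genes of VLDL export, and 6 higher and 4 lower of 10 regulators. The 10 with the lowest unadjusted p had adjusted p from 0.181 to 0.306 in limma. In triglyceride synthesis these were Agpat2 at -0.56, Gpat2 at 1.32, Agpat1 at 0.29, all 3 acyltransferases on the way from glycerol phosphate, and Lpin1, a phosphatidate phosphatase, at 0.45. Among regulators they were Mlxipl, which encodes the sugar-responsive factor ChREBP, at 0.76, Pparg, the factor that drives fat storage, at 0.89, and Foxo1, an insulin-controlled factor, at -0.36. The others were Pnpla7, a lysophospholipase, at 0.39, Ces1d, a carboxylesterase that hydrolyses triglyceride, at 0.78, and Sar1b, a GTPase of vesicle export, at -0.27.

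Gpat2 and Mlxipl are given by sample, a choice made after their values were seen. Gpat2 was at -5.05, -5.05 and -5.58 in control SHPCs, at -3.65, -3.45 and -4.65 with BM-MCs and at -3.30 and -3.33 in MHs. Mlxipl was at -2.37, -2.86 and -2.17 in control SHPCs, at -1.72, -1.61 and -1.80 with BM-MCs and at -2.52 and -2.13 in MHs. For both genes every sample with BM-MCs lay above every control, which held for 8 of the 57 genes, while for 4 every sample lay below. Pparg was well above background on 1 of the 2 control arrays with complete marks and on all 3 arrays with BM-MCs.

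Between MHs and control SHPCs the 10 genes with the lowest unadjusted p had adjusted p from 0.0543 to 0.179 in limma. Of the lipolysis genes, Ces1d was at 2.20, Mgll, the monoacylglycerol lipase, at 0.68, Faf2, a droplet protein that binds the ATGL lipase, at 0.53, and Aadac, an esterase of the endoplasmic reticulum, at -0.86. Of the droplet proteins, Fitm2, needed for droplet budding, was at 0.62 and Hsd17b13, a hepatocyte droplet enzyme, at -0.84. Gpat2 was at 1.91, Acsl3, an acyl-CoA synthetase on nascent droplets, at 0.72, Agpat2 at -0.57 and Pparg at 0.99. Ces1d was at 4.35 and 3.44 in MHs, at 1.54, 1.73 and 1.82 in control SHPCs and at 2.99, 2.70 and 1.76 with BM-MCs, so that both MH samples lay above every SHPC sample.

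With BM-MCs against MHs the 10 genes with the lowest unadjusted p had adjusted p from 0.196 to 0.387 in limma. Acsl3 was at -0.88, Ces1d at -1.41, Abhd6, a monoacylglycerol lipase, at -0.39, Mgll at -0.38, Faf2 at -0.30, Fitm2 at -0.37, Foxo1 at -0.40 and Sar1b at -0.34. Mlxipl was at 0.62 and Hsd17b13 at 0.63.

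**Figure D4:**
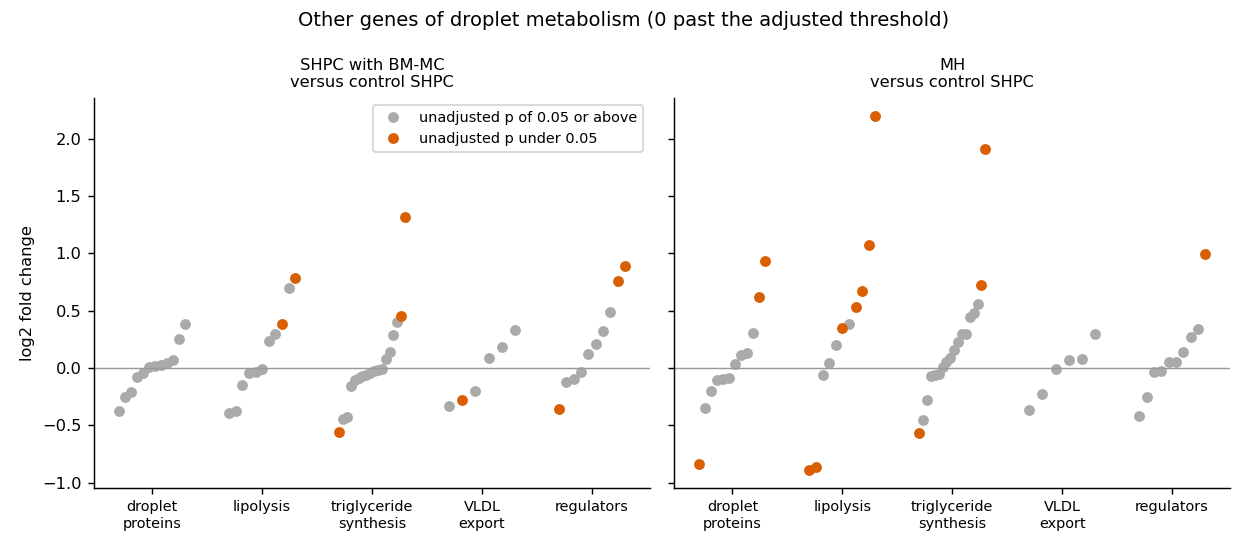
Log2 fold change (vertical axis) of the 57 tested genes of droplet metabolism outside the 10 droplet genes, by list, for SHPCs with BM-MCs and for MHs, each against control SHPCs. Each point is a gene, points in orange have an unadjusted p under 0.05 in limma and 0 passed the adjusted threshold. Ces1d at 2.20 and Gpat2 at 1.91 in MHs lie highest.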

How the data were processed

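Signals were read from 1-colour Agilent rat arrays for the 8 samples. Per the labels, the authors extracted them with Agilent Feature Extraction 10.7. The deposited intensity is the scanner's background-subtracted processed signal, with no scaling between arrays, and the value table holds the same signals. The 12 probes were found by gene name on non-control spots. In R 4.3.3, outlier spots were dropped, each log2 signal was taken relative to its array's 75th percentile, and repeated spots of a probe were averaged. A probe was kept if marked well above background on 3 or more of the 7 fully marked arrays. The 23111 kept were tested with limma 3.58.1 and Benjamini-Hochberg adjustment, threshold 0.05. SHPCs with BM-MCs and control SHPCs were fitted on their 6 samples, and the MH comparisons on all 8 in 1 fit. A gene with several probes is given by its brightest tested one. Normexp background correction could be run on 7 arrays only. All 10 genes are named, with other pathway genes filled to 10 per comparison by unadjusted p and the 5 symbols most like the gene with the widest range of group means. Markers of biliary cells, granulocytes and red cells were well above background on all 7 arrays for 2 of 8, 3 of 6 and 5 of 6 genes. The fits were tested on simulated data. The genes, lists and tests were chosen with earlier results of these data known. The number of arrays limits the precision.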

Additional observations from a re-analysis of the deposited data

How the results depend on the processing

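No droplet gene passed the adjusted threshold of limma under any alternative. The methods' t-test without adjustment called 1 gene higher in MHs than in control SHPCs, Cidea, and 0 after Benjamini-Hochberg adjustment. Over all 23111 probes the unadjusted t-test called 2169 higher and 1868 lower in MHs, and 0 in either direction after adjustment. Unadjusted calls were thus common over all probes, and the call of Cidea does not stand out from them. Scaling to the array median shifted the median of all probes from 0.018 to -0.17 with BM-MCs against control SHPCs, moved the median of the droplet genes from 0.051 to -0.14, and turned Plin5 to -0.14, Cideb to -0.14, Cidec to -0.063 and Pnpla2 to -0.093. With BM-MCs against MHs it shifted the median of all probes from 0.0030 to -0.19 and that of the droplet genes from -0.19 to -0.39, and turned Cideb to -0.20. Quantile normalization turned Plin5 to -0.16 and Dgat2 to 0.082 in the first of these comparisons, normexp with quantile normalization turned them to -0.15 and 0.019, and array weights turned Dgat2 to 0.027. With the slide set as a block, the median was -0.25, Plin5 was -0.47, and G0s2 turned to -0.35 against MHs. Cideb against MHs was -0.078 without scaling and -0.0021 with array weights. The mean over probes turned Dgat1 to -0.015 in MHs against control SHPCs.

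With each sample left out in turn, the median over the droplet genes ran from 0.070 to 0.20 for MHs against control SHPCs. It ran from -0.20 to -0.12 for SHPCs with BM-MCs against MHs. In SHPCs with BM-MCs against control SHPCs the median ran from -0.11 to 0.13. Plin5 ran from -0.15 to 0.31, G0s2 from -0.53 to 0.17, Pnpla2 from -0.00092 to 0.19, Dgat2 from -0.16 to 0.073 and Cideb from -0.012 to 0.12. For MHs against control SHPCs, Plin2 ran from -0.048 to 0.23, Cideb from -0.013 to 0.12, Dgat1 from -0.028 to 0.10 and Dgat2 from -0.23 to 0.27. For SHPCs with BM-MCs against MHs, Dgat2 ran from -0.34 to 0.16, Cideb from -0.064 to 0.067 and Cidec from -0.096 to 0.043. The cause was not tested. The other results kept their direction.

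Samples of one number in the SHPC groups had deviations correlated at 0.13, 0.078 and 0.17 across 22969 probes. For samples of different numbers the correlations ran from -0.15 to 0.082, so these values lean towards a pairing. Neither the labels nor the methods name a pairing, and the main fits used none. With the replicate block the median over the droplet genes was 0.051, 0.10 and -0.22 in the 3 comparisons, and 0 were called. Over all probes the block left 0 calls in place of 5 with BM-MCs against control SHPCs. With BM-MCs against MHs it left 0 in place of 74 higher and 4 lower. In MHs against control SHPCs it left 29 higher and 130 lower in place of 50 and 212.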
